A study of Homo sapiens with 8 samples.

Results

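The complement system and its inhibitors were examined as 33 genes in Hep3B cells, a human hepatocellular carcinoma line. The genes were chosen by name, as the complement proteases, components and inhibitors, with earlier results of these data known. Their estimated RNA-seq counts were summed per gene over the transcripts listed. Of the 33 genes, 30 were present in the deposited tables, out of 16169 genes in all. All 30 were in the table of Hep3B and SOX4 knockout cells and 28 were in the table of siRNA-transfected cells. C9, CFHR3 and CFHR4 were in neither table, and CFHR2 and CFHR5 were not in the siRNA table.

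The study asked how the transcription factors SOX4 and STAT6 shape gene expression in liver cancer cells. Of the 8 libraries, 2 came from Hep3B cells with no knockout or siRNA, 2 from Hep3B cells labelled SOX4-/-, 2 from Hep3B cells given a control siRNA and 2 from Hep3B cells given a STAT6 siRNA. All were grown in MEM with fetal bovine serum, and no cytokine was named for them. The SOX4-/- cells had been made earlier with CRISPR/Cas9 and were kept in puromycin, so loss of SOX4 and the state of selected cells cannot be told apart. The study's methods name a pair of knockout lines, #1 and #2, for these data, and the labels number the SOX4-/- libraries 1 and 2 without naming a line, so the spread between them may be that between lines. For the other conditions nothing in the labels says that the 2 libraries were separate cultures, and p-values measure only the spread between these libraries, which may be technical there.

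Complement is a cascade of plasma proteins, most of them made by hepatocytes, that tags and lyses foreign or damaged cells. The classical pathway starts with the C1 proteases, the lectin pathway with mannose-binding lectin and the MASP proteases, and the alternative pathway with factors B and D. All of these routes cleave C3 and then C5, and C5b gathers C6, C7, C8 and C9 into a membrane pore, while fluid-phase and membrane-bound inhibitors protect the host's own cells. In the liver many of these genes respond to acute-phase cytokines.

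Depth was 16266282 to 25353113 estimated counts per library. Values below are CPM, that is, counts relative to the size of the library after TMM scaling, which was done within each table, so that levels set side by side across the Hep3B and siRNA tables were not scaled together. SOX4 itself had 799 and 266 CPM in the Hep3B libraries and 298 and 302 CPM in the SOX4-/- libraries, with overlapping groups and an adjusted p of 0.372, so the summed transcript level gave no check of the knockout label, and whether the edited part of the gene is read by these counts is not given in the sources used here. STAT6 had 32 and 13.2 CPM in Hep3B and 2.76 and 2.2 CPM in the SOX4-/- libraries, a fall (log2 fold change -3.18, SE 0.57, adjusted p = 0.0275). In the siRNA table STAT6 had 42.5 and 31.4 CPM with the control siRNA and 9.92 and 5.98 CPM with the STAT6 siRNA, and the groups did not overlap (log2 fold change -2.22, SE 0.72, adjusted p = 1). All 10 hepatocyte markers examined were listed in both tables, and albumin, the main plasma protein of hepatocytes, had 5095.1 to 28444.8 CPM.

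Many complement genes were higher in the libraries labelled SOX4-/- than in Hep3B. Of the 30 complement genes with a row in this comparison's counts, 26 passed the filter on low counts and were tested, and MBL2, C7, CFHR2 and CFHR5 did not. Of the 26 tested, 11 rose, none fell and 15 did not pass the test (edgeR quasi-likelihood test, Benjamini-Hochberg adjusted p below 0.05 over 14415 genes). Higher calls made up 42.3% of the complement genes tested and 4.5% of all genes tested, and lower calls made up 1.39% of all genes. The genes that rose were C1R, C1S, C2, C4B, CFB, CFD, C6, C8G, SERPING1, C4BPB and VTN, with log2 fold changes of 2.09 to 5.33. The median log2 fold change was 2.07 over the 26 genes and 0.01 over all genes. Both SOX4-/- libraries lay above both Hep3B libraries for 19 of the 26 genes, where 30.6% of all genes had this order. For none of the 26 did both lie below, where 27.4% of all genes did. Because the genes were chosen with earlier results of these data known, these shares describe the list and are not an independent test. The lowest count of any tested complement gene in a library was 10, for C4BPB and C8B in Hep3B library 2. With at least 10 counts asked of every library all 26 genes were still tested, and 10 were called, C4BPB no longer being among them. C2, CFB and SERPING1 kept the call whichever library was left out. The other 8 genes lost it without SOX4-/- library 1, and again without SOX4-/- library 2, when 3 complement genes passed each time and 73 and 21 genes passed in all.

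In the classical pathway all 6 genes had both SOX4-/- libraries above both Hep3B libraries, and 4 of them rose. C2, the protease subunit of the classical and lectin C3 convertase (hg38 chr6:31897785-31945674), had 4.26 and 4.22 CPM in Hep3B and 211 and 131 CPM in the SOX4-/- libraries. The Hep3B libraries were alike and both knockout libraries were far above them, a 40.3-fold rise (log2 fold change 5.33, SE 0.44, adjusted p = 0.0055). C1R and C1S are the proteases of the C1 complex and neighbours on chromosome 12. C1R (chr12:7080211-7092447) had 10.2 and 8.76 CPM in Hep3B and 38.1 and 42.7 CPM in the SOX4-/- libraries (log2 fold change 2.09, SE 0.37, adjusted p = 0.0267). C1S (chr12:7060676-7071031) had 2.04 and 2.9 CPM in Hep3B and 17.1 and 22 CPM in the SOX4-/- libraries (log2 fold change 2.98, SE 0.48, adjusted p = 0.0223). For both genes the spread within a condition was small beside the gap between conditions. C1RL, a C1r-like protease at the same locus, had 16.1 and 13.7 CPM in Hep3B and 38.5 and 45.5 CPM in the SOX4-/- libraries and did not pass (log2 fold change 1.50, SE 0.36, adjusted p = 0.0526).

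The promoter windows of the genes that rose were searched for letters that STAT and SOX factors are known to bind, and each match to a STAT form is shown with 10 bases on either side so that its place can be seen. The windows belong to RefSeq starts (GRCh38.p14), which are not always those of the transcripts counted. The C1R match to TTCNNNGAA, the form bound by most STAT dimers, is in capitals, 5′ to 3′ (chr12:7091961-7091989, minus strand). It lies before an internal RefSeq start of C1R and 468 bases inside NM_001733, the C1R transcript counted, so it is not upstream of that transcript.
C1R: gccagtcctaTTCCTGGAAggggagggga

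C4A and C4B encode the isotypes of C4, the other subunit of the classical C3 convertase, and are near-identical copies whose reads cannot be assigned with certainty. C4A had 0.851 and 2.11 CPM in Hep3B and 12.5 and 6.16 CPM in the SOX4-/- libraries (log2 fold change 2.65, SE 0.68, adjusted p = 0.0622). C4B had 3.86 and 4.33 CPM in Hep3B and 35.2 and 14.6 CPM in the SOX4-/- libraries (log2 fold change 2.61, SE 0.54, adjusted p = 0.0381). Both knockout libraries were above both Hep3B libraries for each copy. One of the C4B transcripts was placed at the C4A locus (chr6:31982057-32002681) and carried 35.5% of the C4B counts, and a further entry, C4B_2, held the same values as C4B in every library. With C4A and C4B summed the levels were 4.71 and 6.44 CPM in Hep3B and 47.8 and 20.8 CPM in the SOX4-/- libraries, and the sum passed (log2 fold change 2.62, SE 0.51, adjusted p = 0.0337). With C4B_2 added, which was tried after its values were seen, the log2 fold change was 2.61 (SE 0.49, adjusted p = 0.0318).

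Both alternative pathway genes rose. CFB encodes factor B, the protease subunit of the alternative C3 convertase, and lies next to C2 (chr6:31945944-31952084). Levels of CFB were 12.4 and 7.23 CPM in Hep3B and 264 and 191 CPM in the SOX4-/- libraries, a 23.2-fold rise (log2 fold change 4.53, SE 0.45, adjusted p = 0.00875). CFD encodes factor D, the protease that cleaves factor B (chr19:859659-863569). Levels of CFD were 3.01 and 5.49 CPM in Hep3B and 22 and 19.2 CPM in the SOX4-/- libraries (log2 fold change 2.28, SE 0.48, adjusted p = 0.0404), and the groups did not overlap. Factor B is an acute-phase protein, and its window held a TTCNNNGAA match, in capitals (GRCh38.p14, chr6:31945993-31946021, plus strand). The match begins 92 bases before the RefSeq start but 59 bases inside the CFB transcript counted, whose start is given further upstream.
CFB: cgcttggatgTTCCGGGAAagtgatgtgg

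C2, CFB, C4A and C4B lie together in the class III region of the major histocompatibility complex. In a window from 100000 bases before C2 to 100000 bases after C4B (chr6:31797785-32135418), which was drawn after the values were seen, 17 other genes were tested and 2 passed. One was C4B_2 (log2 fold change 2.61), whose values are those of C4B, and the other was C6orf48, which fell (log2 fold change -1.58, adjusted p = 0.0436). Over all genes tested 4.5% were called higher and 1.39% lower. The median log2 fold change of the 17 genes was -0.25, with a range from -3.47 for TNXB to 3.37 for SLC44A4.

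No lectin pathway gene passed the test. MASP1, whose gene gives the MASP-1 and MASP-3 proteases and the inhibitor MAp44, had 189 and 8.02 CPM in Hep3B and 329 and 210 CPM in the SOX4-/- libraries (log2 fold change 1.45, SE 1.08, adjusted p = 0.432). The knockout libraries were above both Hep3B libraries, but the Hep3B libraries themselves were far apart. Without Hep3B library 1 the log2 fold change was 5.01, and without Hep3B library 2 it was 0.50. MASP2, which cleaves C4 and C2, had 1.99 and 3.22 CPM in Hep3B and 3.41 and 0.99 CPM in the SOX4-/- libraries, and the groups overlapped (log2 fold change -0.23, SE 0.74, adjusted p = 0.871). MBL2, the mannose-binding lectin, had 0 and 1 counts in Hep3B and 47 and 10 counts in the SOX4-/- libraries and was too low to be tested.

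The MASP1 transcripts did not all share the gap between the Hep3B libraries. NM_001879, which encodes MASP-1, was estimated at 0.14 and 0.209 CPM in Hep3B and at 15.7 and 8.36 CPM in the SOX4-/- libraries. NM_139125, which encodes MASP-3 and held most of the gene's counts in 3 of these 4 libraries, was at 130 and 3.6 CPM in Hep3B and 241 and 166 CPM in the SOX4-/- libraries. NM_001031849, which encodes MAp44, was at 6.65 and 0.513 CPM in Hep3B and 10.7 and 9.2 CPM in the SOX4-/- libraries. NR_033519, a non-coding transcript, was at 52.2 and 3.69 CPM in Hep3B and 62.1 and 27.1 CPM in the SOX4-/- libraries. For MASP-1 both Hep3B libraries were low, whereas for MASP-3, MAp44 and NR_033519 only library 2 was. The MASP-1 values in Hep3B rest on only 2.47 and 3.96 estimated counts. In the siRNA table the MASP-1 transcript was at 1.27 and 0.573 CPM with the control siRNA and 2.9 and 1.63 CPM with the STAT6 siRNA. These are the authors' estimates of how reads divide among overlapping transcripts, and no test was run on them.

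**Figure D1:**
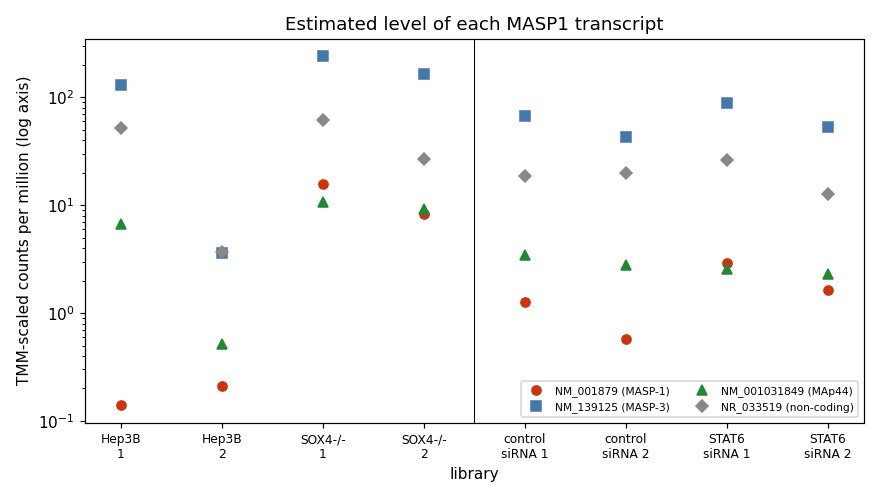
Estimated level of each MASP1 transcript in the 8 libraries, in TMM-scaled CPM on a log axis, with the Hep3B table left of the line and the siRNA table right of it. The MASP-1 transcript (red circles) lies at 0.14 and 0.209 in Hep3B and at 15.7 and 8.36 in SOX4-/- cells, and the MASP-3 transcript (blue squares) drops to 3.6 only in Hep3B library 2.

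The central components did not pass. C3, on which all pathways converge, had 3439.2 and 344 CPM in Hep3B and 1496.5 and 7140.1 CPM in the SOX4-/- libraries. The order of the libraries was mixed, the libraries of each condition were far apart, and the groups overlapped (log2 fold change 1.19, SE 1.09, adjusted p = 0.523). Without Hep3B library 1 the log2 fold change was 3.59, and without SOX4-/- library 2 it turned to -0.35. C5, the precursor of the anaphylatoxin C5a and of C5b, had 39.8 and 26.1 CPM in Hep3B and 112 and 50.5 CPM in the SOX4-/- libraries, with no overlap (log2 fold change 1.31, SE 0.47, adjusted p = 0.136).

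Of the terminal components, C6 and C8G rose and C8A and C8B did not pass, although all 4 had both SOX4-/- libraries above both Hep3B libraries. C6 (chr5:41142146-41261438) had 2.16 and 0.844 CPM in Hep3B and 13.5 and 8.47 CPM in the SOX4-/- libraries (log2 fold change 2.87, SE 0.64, adjusted p = 0.0454). C8G, the gamma chain of C8 (chr9:136945246-136946974), had 3.01 and 3.69 CPM in Hep3B and 28.2 and 33.3 CPM in the SOX4-/- libraries (log2 fold change 3.19, SE 0.42, adjusted p = 0.0152). C8B, the beta chain, had 2.84 and 0.527 CPM in Hep3B and 16.2 and 14.5 CPM in the SOX4-/- libraries (log2 fold change 3.19, SE 0.76, adjusted p = 0.0517). C8B had the same log2 fold change as C8G to 2 decimals, with a wider gap between its Hep3B libraries. The log2 fold change of C8B was 4.79 without Hep3B library 1 and 2.43 without Hep3B library 2. C8A, the alpha chain, had 1.99 and 0.686 CPM in Hep3B and 5.07 and 5.94 CPM in the SOX4-/- libraries (log2 fold change 2.04, SE 0.68, adjusted p = 0.114). The log2 fold change of C8A was 2.93 without Hep3B library 1 and 1.46 without Hep3B library 2. C7 had 4 and 0 counts in Hep3B and 13 in each SOX4-/- library and was not tested, and C9, the pore-forming component, was not listed.

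The C6 site is shown for the wider form of the STAT motif, TTC and GAA with 4 bases between them, which STAT6 is known to prefer. The match is in capitals (GRCh38.p14, chr5:41213554-41213583, minus strand). It begins 41 bases before a RefSeq start internal to the gene and 20 bases inside NM_000065, the shorter of the C6 transcripts counted.
C6: aaagttcaagTTCCAGAGAAcatttatttt

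Among the fluid-phase inhibitors and binding proteins 3 of the 7 tested genes rose. SERPING1 encodes the C1 inhibitor, which blocks C1r, C1s and the MASP proteases (chr11:57597554-57614853). Its levels were 2.38 and 2.74 CPM in Hep3B and 98.7 and 95.6 CPM in the SOX4-/- libraries. The 2 libraries of each condition were nearly equal, and the rise was 37.8-fold (log2 fold change 5.24, SE 0.40, adjusted p = 0.00384), with the smallest adjusted p of the complement genes. VTN encodes vitronectin, an adhesion protein that also blocks insertion of the terminal complex (chr17:28367278-28370352). Its levels were 227 and 161 CPM in Hep3B and 2165.5 and 1431.0 CPM in the SOX4-/- libraries, a 9.27-fold rise (log2 fold change 3.21, SE 0.50, adjusted p = 0.0216).

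C4BPA and C4BPB encode the chains of C4b-binding protein and lie side by side on chromosome 1, and their values differed. C4BPB (chr1:207088842-207099992) had 3.01 and 0.527 CPM in Hep3B and 19 and 17 CPM in the SOX4-/- libraries (log2 fold change 3.35, SE 0.77, adjusted p = 0.0478). C4BPA had 35.6 and 3.59 CPM in Hep3B and 29 and 59.2 CPM in the SOX4-/- libraries (log2 fold change 1.17, SE 0.88, adjusted p = 0.437). Library 1 was the higher of the Hep3B libraries for both chains, and only for C4BPA did it reach the SOX4-/- range. Without Hep3B library 1 C4BPA had a log2 fold change of 3.56. Whether the 2 genes differed in their change was not tested. Both C4BPB and VTN held a TTCNNNGAA match, in capitals (GRCh38.p14, chr1:207089230-207089258, plus strand, and chr17:28370398-28370426, minus strand). That of C4BPB begins 1 base inside NM_000716, a C4BPB transcript counted, and that of VTN begins 64 bases before the start of the VTN transcript counted.
C4BPB: tggatttgcaTTCCCAGAAaccaggaaat
VTN: aggcccagtgTTCCAGGAAtgtgaccttt

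The other fluid-phase genes did not pass. CLU, which encodes clusterin, an abundant chaperone that binds the terminal complex, had 776 and 707 CPM in Hep3B and 912 and 619 CPM in the SOX4-/- libraries (log2 fold change 0.05, SE 0.43, adjusted p = 0.958). CFI, the protease that cleaves C3b and C4b, had 25.9 and 16.9 CPM in Hep3B and 27.7 and 19.9 CPM in the SOX4-/- libraries (log2 fold change 0.15, SE 0.40, adjusted p = 0.84). C1QBP, a mainly mitochondrial protein that binds C1q, had 125 and 124 CPM in Hep3B and 91.3 and 137 CPM in the SOX4-/- libraries (log2 fold change -0.12, SE 0.35, adjusted p = 0.859). The groups overlapped for these 3 genes. Of the factor H-related genes, CFHR2 had 0 counts in both Hep3B libraries and 49 and 0 counts in the SOX4-/- libraries, and CFHR5 had 1 and 0 counts in Hep3B and 11 and 30 counts in the SOX4-/- libraries. These counts were too low for the test, and reads of this gene family can be shared between its members.

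None of the 3 membrane-bound inhibitors passed. CD59, which blocks the pore on the cell's own surface, had 218 and 99.4 CPM in Hep3B and 512 and 742 CPM in the SOX4-/- libraries, with no overlap (log2 fold change 1.98, SE 0.50, adjusted p = 0.0597). It passed without Hep3B library 1 (log2 fold change 2.60, adjusted p = 0.0112). CD46, a cofactor for the cleavage of C3b and C4b, had 345 and 186 CPM in Hep3B and 550 and 436 CPM in the SOX4-/- libraries (log2 fold change 0.89, SE 0.44, adjusted p = 0.243). CD55, which speeds the decay of the convertases, had 30.8 and 14.9 CPM in Hep3B and 20.3 and 21.9 CPM in the SOX4-/- libraries (log2 fold change -0.12, SE 0.44, adjusted p = 0.891). For CD55 both knockout libraries lay between the Hep3B libraries, and for CD46 both lay above them.

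The Hep3B libraries differed from each other more for some complement genes than for others. Across the 26 tested genes the median absolute log2 difference between the Hep3B libraries was 0.72, against 0.52 over all 14415 genes, and it was over 1 for 10 of the 26. Hep3B library 1 held 10 times the C3 level and 9.92 times the C4BPA level of library 2. The same libraries differed little for C2, SERPING1, C1R and C4B. The SOX4-/- libraries had a median absolute log2 difference of 0.51 over the 26 genes, against 0.39 over all genes.

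With the STAT6 siRNA no complement gene passed the test. All 27 complement genes tested had adjusted p-values of 1, as 0 of 13554 genes (0%) passed in the table as a whole, and 0 of the 27 had an unadjusted p below 0.05 by edgeR, where 14 of all genes did. DESeq2 called 0 of the 27 genes as well. STAT6, the gene targeted, did not pass either (log2 fold change -2.22, SE 0.72), so a gene that did not pass cannot be taken as unchanged. With the library number as a block in edgeR, none of the 27 passed. In that fit C2, C3, C4B, C8G and VTN had unadjusted p-values from 0.00629 to 0.0446. The log2 fold changes ran from -0.39 to 0.77 with a median of 0.28, against -0.03 over all genes, and 22 of the 27 were above 0. Both STAT6 siRNA libraries lay above both control libraries for 1 of the 27 genes, C2, where 2.74% of all genes had this order, and for none did both lie below, where 5.26% of all genes did.

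C2 had 3.96 and 3.15 CPM with the control siRNA and 7.49 and 4.66 CPM with the STAT6 siRNA (log2 fold change 0.77, SE 0.75). Of the other components, C3 had 1387.3 and 730 CPM with the control siRNA and 2237.8 and 891 CPM with the STAT6 siRNA (log2 fold change 0.56, SE 0.63). C5 had 5.6 and 20 CPM with the control siRNA and 4.04 and 18.8 CPM with the STAT6 siRNA (log2 fold change -0.16, SE 0.89). In both conditions C3 was higher in library 1 and C5 in library 2, so the libraries divided by number rather than by siRNA. C4A had 2.6 and 1.69 CPM with the control and 4.04 and 2.06 CPM with the STAT6 siRNA, and C4B had 5.88 and 4.75 CPM and 10.9 and 5.49 CPM (log2 fold changes 0.50, SE 0.77, and 0.62, SE 0.76). CFB had 14.8 and 8.98 CPM with the control and 13 and 12.9 CPM with the STAT6 siRNA (log2 fold change 0.12, SE 0.73). The largest change in the alternative pathway was that of CFD, at 18.5 and 6.31 CPM with the control and 22.3 and 8.42 CPM with the STAT6 siRNA (log2 fold change 0.30, SE 0.81). The groups overlapped for all of these genes but C2, and none of the differences passed the test.

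Several other genes that rose in the SOX4-/- libraries did not pass with the STAT6 siRNA. C1R had 10 and 6.22 CPM with the control and 10.6 and 7.55 CPM with the STAT6 siRNA, and C1S had 4.52 and 5.51 CPM and 4.48 and 5.86 CPM. C6 had 5.14 and 5.11 CPM with the control and 3.97 and 10.5 CPM with the STAT6 siRNA. C4BPB had 3.22 and 2.31 CPM with the control and 2.57 and 4.25 CPM with the STAT6 siRNA. For these 4 genes the groups overlapped, with log2 fold changes from 0.05 to 0.50, and for C6 and C4BPB STAT6 siRNA library 2 was above both controls and library 1 was not. The lectin and terminal genes with the largest changes were MASP1, at 90.4 and 65.9 CPM with the control and 121 and 69.5 CPM with the STAT6 siRNA (log2 fold change 0.29, SE 0.59), and C8G, at 11.2 and 6.22 CPM and 16.5 and 9.04 CPM (log2 fold change 0.55, SE 0.76).

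Of the inhibitors, SERPING1 had 2.94 and 1.73 CPM with the control siRNA and 4.33 and 2.48 CPM with the STAT6 siRNA (log2 fold change 0.54, SE 0.77). VTN had 473 and 306 CPM with the control and 774 and 388 CPM with the STAT6 siRNA (log2 fold change 0.58, SE 0.59). CLU had 1225.0 and 741 CPM with the control and 1657.3 and 913 CPM with the STAT6 siRNA (log2 fold change 0.39, SE 0.59). These 3 genes were higher in library 1 than in library 2 of each condition, and the groups overlapped. CD46 had 35.4 and 134 CPM with the control and 27.7 and 108 CPM with the STAT6 siRNA, and CD55 had 3.5 and 5.47 CPM and 2.35 and 4.46 CPM (log2 fold changes -0.32, SE 0.77, and -0.39, SE 0.76). CD59 had 168 and 184 CPM with the control and 140 and 214 CPM with the STAT6 siRNA (log2 fold change 0.01, SE 0.56). The membrane inhibitors were thus higher in library 2 of each condition, the opposite order to SERPING1, VTN and CLU.

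The order of the siRNA libraries went with the base composition of the transcripts. For CD46, C5 and CFI, with GC contents of 37.7%, 40% and 40.7% in their longest transcripts, library 2 of the control siRNA held 3.79, 3.58 and 2.03 times the level of library 1. For CFD and C8G, with GC contents of 65.4% and 63.9%, it held 0.34 and 0.556 times that level. Over the 27 genes the Spearman correlation of the log2 library difference with GC content was -0.78 for the control siRNA and -0.92 for the STAT6 siRNA, and over all genes with a known GC content it was -0.74 and -0.80, where all genes share the same 2 libraries. The log2 fold change also went with GC content, with a Spearman correlation of 0.65 over the 27 genes and 0.58 over all genes for the STAT6 siRNA, and of 0.42 over the 26 genes and 0.25 over all genes for the SOX4-/- libraries. When GC content and length entered the fit as offsets, 7 complement genes passed in the SOX4-/- comparison (C1R, C1S, C2, C8G, CFB, SERPING1 and VTN) and 0 in the siRNA comparison.

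No complement gene passed in the main test of the SOX4 knockout effect against the STAT6 siRNA effect. This changed with the library number as a block in edgeR, when 3 complement genes passed. In the main fit, of all 8 libraries, 11 of 14313 genes (0.0769%) passed, and none of them was among the 27 complement genes. C2 had a difference of effects of 4.44 on the log2 scale (SE 0.79, adjusted p = 0.0579), CFB of 4.30 (SE 0.77, adjusted p = 0.0579) and SERPING1 of 4.58 (SE 0.83, adjusted p = 0.0646). These 3 genes passed without control siRNA library 1 and without control siRNA library 2, C2 and SERPING1 passed without STAT6 siRNA library 1, and DESeq2 called C1S beside all 3. For C3, CFI, CD55 and CLU the difference was between -0.47 and 0.53, with adjusted p-values of 0.998.

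**Figure D2:**
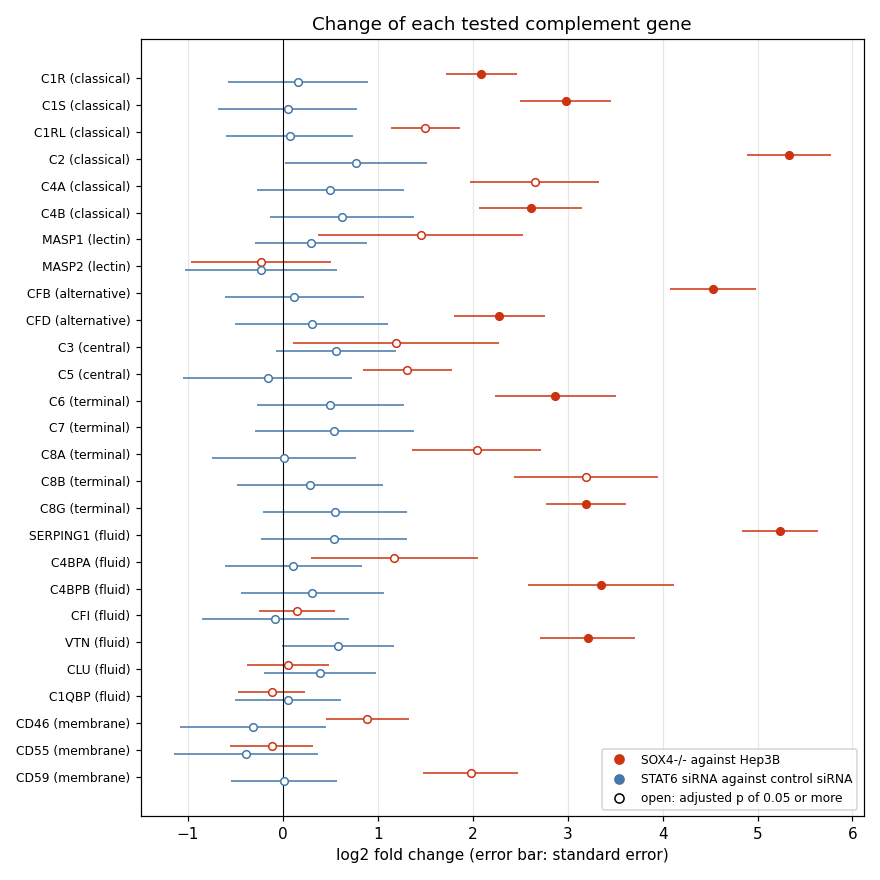
Log2 fold change of each tested complement gene, in SOX4-/- against Hep3B (red) and in STAT6 siRNA against control siRNA (blue), with standard errors from the edgeR fit and filled symbols for adjusted p below 0.05. Of the red points 11 are filled and lie between 2.09 and 5.33, and no blue point is filled, with all of them between -0.39 and 0.77.

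The order of the levels within a condition was compared per length, as mean CPM per kilobase of the longest transcript. In Hep3B C3 was first at 359 ± 416 (SD, n = 2), followed by CLU at 241 ± 15.7, C1QBP at 106 ± 0.497 and VTN at 90.3 ± 21.8. In the SOX4-/- libraries VTN was first at 837 ± 242, followed by C3 at 821 ± 758, CLU at 249 ± 67.5 and C1QBP at 97.7 ± 27.7. The libraries of C3 and CLU overlapped in both conditions, so these neighbours could not be ordered, whereas VTN stood above CLU in both SOX4-/- libraries and below it in both Hep3B libraries. C2, CFB and SERPING1 ranked 17, 15 and 18 of 30 genes in Hep3B and 8, 6 and 10 in the SOX4-/- libraries. Rank is a description of 2 libraries, with no test.

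With the control siRNA CLU was at 319 ± 111, C1QBP at 212 ± 70, C3 at 201 ± 88.3 and VTN at 181 ± 55.1 CPM per kilobase, and with the STAT6 siRNA CLU was at 417 ± 171, C3 at 297 ± 181, VTN at 270 ± 127 and C1QBP at 220 ± 50.9 (SD, n = 2). With the control siRNA both CLU libraries (398 and 241) were above both VTN libraries (220 and 142), and with the STAT6 siRNA both CLU libraries (538 and 296) were above both C1QBP libraries (256 and 184). The other pairs of these 4 genes overlapped between the libraries of a condition. Read library by library, CLU stood above C1QBP, C3 and VTN in each siRNA library. C3 stood above C1QBP and VTN in library 1 of each siRNA condition and below both in library 2. For CD59 and CD46, whose 8 listed transcripts each differ in length, the scale decided the value. CD59 was at 20.8 CPM per kilobase in Hep3B and 82.2 in the SOX4-/- libraries by its longest transcript, and at 133 and 498 when each transcript was divided by its own length. CD46 was at 33.9 and 63 by its longest transcript and at 82.9 and 153 by each transcript's own length. By own length the mean of CD59 stood above those of C1QBP (106) and VTN (90.3) in Hep3B and of CLU (249) in the SOX4-/- libraries. There CD46 also stood above C1QBP (97.7). The order and ranks given above thus hold for the longest transcript only.

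Genes around the cascade were read from lists of other complement genes, of cytokine and hepatic factors known to act on complement genes, and of cell type markers. Of 23 other complement genes 6 were tested in the SOX4-/- comparison and 1 was called higher. This was CPN2, a subunit of carboxypeptidase N, which inactivates C3a and C5a, at 0.0568 and 0.158 CPM in Hep3B and 4.39 and 3.74 CPM in the SOX4-/- libraries. Its Hep3B levels were too low for the filter, so it was tested only through the libraries in which it was high, and its call is not counted as support. The C1q chains C1QA, C1QB and C1QC, the ficolins and the receptors CR1, CR2 and C3AR1, most of them products of immune cells, were not listed in either table. Of 21 cytokine and hepatic factors 1 rose, which is 4.76% against the 4.5% of all genes called higher. It was IL1R1, the receptor for the acute-phase cytokine interleukin-1, at 10.5 and 5.8 CPM in Hep3B and 74.6 and 34.7 CPM in the SOX4-/- libraries (log2 fold change 2.75, SE 0.52, adjusted p = 0.0319). None of the 21 fell, and their median log2 fold change was 0.51, against 0.01 over all genes. In the siRNA table none of the 5 other complement genes or 21 factors tested passed.

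Some hepatocyte markers were higher with the complement genes in the SOX4-/- libraries. Of the 10 markers, TTR, APOA1 and FGB, all genes of plasma proteins, rose (log2 fold changes 3.14, 2.40 and 2.53), and none fell. HP, the gene of haptoglobin, was also called, but at 0.17 and 0.0527 CPM in Hep3B and 3.07 and 1.26 CPM in the SOX4-/- libraries it was tested only through the libraries in which it was high. Higher calls made up 40% of the 10 markers, against 4.5% of all genes. This share includes HP, whose call is not counted as support, so the share is not read as support either. AFP alone had a log2 fold change below 0 (-0.76, adjusted p = 0.542). The summed level of all 10 markers was 16654.6 and 12170.3 CPM in Hep3B and 52971.7 and 31883.1 CPM in the SOX4-/- libraries. This sum includes ALB, at 7457.5 and 6824.4 CPM in Hep3B and 28444.8 and 13643.7 CPM in the SOX4-/- libraries, which did not pass (adjusted p = 0.22). In the siRNA comparison 0 of the 10 passed, and the summed level was 15955.8 and 17291.5 CPM with the control and 17056.8 and 21140.6 CPM with the STAT6 siRNA. The part of a general change in plasma protein genes in the complement result was not tested.

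Markers of other cell types were also read in the SOX4-/- comparison. Of 6 stellate cell or fibroblast markers 3 were listed, and LUM and PDGFRB rose (log2 fold changes 6.67 and 2.53). COL1A1 did not pass (log2 fold change 1.24, SE 0.79, adjusted p = 0.359). Higher calls made up 66.7% of the 3 markers tested, against 4.5% of all genes. The summed level of the 3 listed markers was 4.43 and 7.44 CPM in Hep3B and 101 and 77.5 CPM in the SOX4-/- libraries. LUM made up most of the sum in the SOX4-/- libraries, at 85.5 and 54.2 CPM, and had 0.624 and 0.738 CPM in Hep3B. COL1A2, DCN and ACTA2 were not listed. Of 5 macrophage or leukocyte markers 4 were listed and none passed, with 90.6 and 35.7 CPM in Hep3B and 190 and 441 CPM in the SOX4-/- libraries, the leukocyte marker PTPRC under 1 CPM in all 4 libraries and CSF1R not listed. Of 4 cholangiocyte markers none passed (966 and 687 CPM in Hep3B and 1041.6 and 1208.3 CPM in the SOX4-/- libraries). Of 4 endothelial markers PECAM1 alone was listed, at 0.0527 to 0.77 CPM. In the siRNA table none of these lists held a called gene. The part of these markers in the complement result was not tested.

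RefSeq gave promoter windows, from 250 bases before to 50 bases after a start, for 22 of the 33 genes. No window was matched for C1S, C3, C4A, C4B, C8G, CFHR2, CFHR3, CFHR4, CFHR5, SERPING1 or CLU. Read on both strands, TTCNNNGAA stood in windows of 9 of the 22 genes (40.9%), C1R, C1RL, C4BPB, C7, CD59, CFB, MASP2, MBL2 and VTN, against 9.38% of all 27305 genes with a window and 7.66% of all 35116 windows. The form with 4 bases between TTC and GAA stood in those of C6 and CFI, 9.09% of the 22 genes, against 7.8% of all genes and 6.44% of all windows. Of the 7 genes that rose and had a window, 4 held the first form, C1R, C4BPB, CFB and VTN, and 1, C6, held the second. Their sites are shown beside their values, and of these 5 the VTN site alone lies upstream of every transcript counted for its gene. C2 and CFD held neither.

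Of the forms bound by SOX factors, AACAAAG stood in windows of C9, MASP1 and MBL2 (13.6% of the 22 genes, against 6.35% of all genes and 5.2% of all windows) and AACAATG in windows of C4BPB and C9 (9.09%, against 4.08% of all genes and 3.33% of all windows). Only these 2 SOX forms were searched. The SOX4 consensus given in the study also allows T in place of either leading A, and those forms were not read. A window with no match to the 2 forms may therefore still hold a SOX4 site. The 2 STAT forms may overlap each other, and the 2 SOX forms differ by 1 base and cannot. Of the genes with the first STAT form, 4 rose, C1RL and CD59 had both SOX4-/- libraries above both Hep3B libraries without passing, the libraries of MASP2 overlapped, and C7 and MBL2 were not tested. A match describes the letters of a window and not binding. The study measured SOX4 and STAT6 binding in Hep3B cells by CUT&RUN, and those data were not read here.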

How the data were processed

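RNA-seq libraries were made by the submitters with a stranded mRNA kit, and their processing notes name STAR, Partek and hg38 without versions or roles. Values deposited by the authors are expected counts per RefSeq transcript, estimates that need not be whole, without normalization, in 2 tables of 4 libraries each. The smallest transcript in either table summed to 10 counts, so transcripts under that total were not analysed here. Strand use in counting is not given in the sources used here.

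Counts were summed per gene and rounded, and 0 columns were left without a library. Each table was fitted alone with edgeR 4.0.16 in R 4.3.3 (filterByExpr, TMM factors, glmQLFit and glmQLFTest), with Benjamini-Hochberg adjustment over all genes tested (14415 and 13554) and a threshold of 0.05. The standard error is the log2 fold change divided by the square root of F. The knockout and siRNA effects were compared as a contrast over 14313 genes, with the 8 libraries in one fit. The scripts were tested on simulated data. Depth was 16266282 to 25353113 counts per library.

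The genes and lists were chosen with earlier results of these data known. Every listed gene was accounted for, and values in every library were given for genes that passed, for the largest change in each role group and for C3, C5, SERPING1, CLU, CD46, CD55, CD59, C4A and C4B. Of other lists, up to 6 genes that passed were named. GC content and length came from GENCODE transcripts for 15121 of 16169 genes, promoters from RefSeq (GRCh38.p14), and positions of genes from the deposited tables. For SERPING1 and C5, levels by each transcript's own length were not computed. Alternatives were DESeq2 1.42.0, other scaling and filters, GC and length offsets, the library number as a block, and each library left out.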

Additional observations from a re-analysis of the deposited data

How the results depend on the processing

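In the SOX4-/- comparison, where 11 complement genes passed, 7 passed with GC and length offsets and 5 with these offsets and a replicate block, and 3 to 18 passed when 1 library was left out. Median-of-ratios factors, no filter, a minimum of 10 counts in every library, DESeq2, the fit of all 8 libraries, another dispersion setting of glmQLFit (added after the data were seen), the replicate block alone and the summed C4 genes gave 10 to 16. DESeq2 called 2160 genes in all where edgeR called 849. In no alternative did a complement gene fall, and C2, CFB and SERPING1 passed in every one, with adjusted p-values up to 0.0423. With the STAT6 siRNA 0 complement genes passed in every alternative, although with the replicate block 62 genes passed in all and with GC and length offsets and the block 302. In the test of the difference of effects, where 0 passed, DESeq2 called 4 complement genes, the replicate block 3, and the fits without 1 library 0 to 3.

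The library number is shared by the labels of both conditions of a table, but no label says that it marks a common culture or day, and there are 2 pairs, so the libraries were not treated as paired. Deviations of same-numbered libraries from their group means correlated at -0.0762 in the Hep3B table and 0.901 in the siRNA table. With the replicate block 12 complement genes passed in the SOX4-/- comparison and 0 in the siRNA comparison, where 5 had an unadjusted p below 0.05 (C2, C3, C4B, C8G and VTN, adjusted p from 0.27 to 0.439). Within both numbers 12 of the 27 genes were higher with the STAT6 siRNA and 4 lower, against 29.3% and 32.7% of all genes.

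The log2 fold changes that turned direction in the SOX4-/- comparison were those of CLU (-0.02 in the fit of all 8 libraries, -0.01 with GC and length offsets and the replicate block, and -0.25 to 0.27 with 1 library left out), CD55 (0.16 with GC and length offsets, 0.26 with these and the block, -0.55 to 0.44 with 1 library left out), MASP2 (-1.38 to 0.35), C3 (-0.35 to 3.59), CFI (-0.13 to 0.44) and C1QBP (-0.48 to 0.15). With the STAT6 siRNA they were those of CD59 (-0.02 with the replicate block, -0.33 to 0.28 with 1 library left out), C3 (-0.25 to 1.18), C5 (-1.67 to 1.04), CLU (-0.11 to 0.87), CD46 (-1.62 to 0.95), C4A (-0.05 to 0.92), MASP1 (-0.17 to 0.63), CFD (-0.56 to 1.36), VTN (-0.01 to 1.00) and CFB (-0.19 to 0.59). None of these had passed, and the cause was not tested. The legacy glmQLFit setting, the default of this edgeR version, gives the values reported. The alternative was the setting with legacy = FALSE, with which 12 complement genes and 966 genes in all passed in the SOX4-/- comparison. Counts of C7, MBL2, CFHR2 and CFHR5 were too low for the test in the SOX4-/- comparison, and C9, CFHR3 and CFHR4 were not listed. A fit that leaves 1 library in a condition assumes that it varies like the others.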

Other observations

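Unmodified Hep3B cells and Hep3B cells given the control siRNA were in separate tables, so condition and table cannot be told apart, and their levels are set side by side with no test. CD46 had 345 and 186 CPM in the Hep3B libraries and 35.4 and 134 CPM in the control siRNA libraries, and CD55 had 30.8 and 14.9 CPM against 3.5 and 5.47 CPM. Among the genes that rose in the SOX4-/- libraries, SERPING1 had 2.38 and 2.74 CPM in Hep3B and 2.94 and 1.73 CPM with the control siRNA, and C2 had 4.26 and 4.22 CPM against 3.96 and 3.15 CPM. C1S had 2.04 and 2.9 CPM in Hep3B against 4.52 and 5.51 CPM, and C8G had 3.01 and 3.69 CPM against 11.2 and 6.22 CPM. CD46 and CD55 were lower in both control siRNA libraries than in either Hep3B library, whereas the third membrane inhibitor, CD59, was at 168 and 184 CPM with the control siRNA, between its Hep3B levels of 218 and 99.4 CPM. C8G was higher in both control siRNA libraries. CD46, with a GC content of 37.7%, was lowest in control siRNA library 1, where genes of low GC content were lower than in library 2, and the part of base composition in these levels was not tested.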
